A study of Mus musculus with 6 samples.

Results

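Ccl2 and Ccl7 encode monocyte chemoattractants of the CC family, MCP-1 and MCP-3, and lie next to each other on mouse chromosome 11. They are 2 of the 39174 genes in the deposited table of FPKM (fragments scaled by transcript length and library depth). They were found by their symbols and had been picked because both were higher after flow, so their difference between flow and control is given below as a description, with no test. RNA was sequenced from MLO-Y4 cells, a line with osteocyte features derived from the long bones of mice that carry SV40 large T antigen behind the osteocalcin promoter. In the flow group, 3 cultures received 2 h of oscillating flow (shear stress 10 dyn/cm²) and were lysed 2 h later, the medium having been renewed. The controls, 3 sham-treated cultures of the same line without flow, were collected in parallel. All cells grew on collagen-coated glass, and replicates came from separate days.

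CCL2 and CCL7 are small secreted proteins that bind heparan sulfate on cells and matrix and attract cells that carry G-protein-coupled receptors. Both act through CCR2, the receptor by which monocytes leave the marrow and enter tissue, and CCL7 also acts through CCR1 and CCR3. In stromal cells and osteoblasts both genes are induced by TNF, IL-1 and Toll-like receptor ligands through NF-kB and AP-1. In bone, the cells they attract include precursors of osteoclasts.

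In GENCODE M21, which uses the mm10 assembly, Ccl2 (ENSMUSG00000035385) lies on the plus strand of chromosome 11 at 82035571 to 82037453. Ccl7 (ENSMUSG00000035373) lies on the same strand at 82045712 to 82047525, with its start 10.1 kb from that of Ccl2. Each has 3 exons. The Ccl2 mRNA has 813 nt with a coding part for 148 amino acids, and the Ccl7 mRNA has 801 nt with a coding part for 97. Exon 2 is coding throughout in both genes and is shown because it holds the feature that names the family, an adjacent pair of cysteine codons (TGC TGC), and because it shows how far the sequences differ. The exons lie on chromosome 11 of mm10, plus strand, at 82036483 to 82036600 for Ccl2 and at 82046518 to 82046629 for Ccl7. They are written 5′ to 3′, and capitals mark the 77 bases that are identical in an alignment of both.
Ccl2 exon 2: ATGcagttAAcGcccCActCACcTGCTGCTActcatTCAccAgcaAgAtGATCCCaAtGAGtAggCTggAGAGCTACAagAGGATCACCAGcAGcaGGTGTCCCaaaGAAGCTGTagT
Ccl7 exon 2: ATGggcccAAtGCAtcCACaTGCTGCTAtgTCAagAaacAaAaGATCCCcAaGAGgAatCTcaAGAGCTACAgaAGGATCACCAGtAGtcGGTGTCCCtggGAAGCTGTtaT
The cysteine codons start at position 24 of the Ccl2 exon and at position 21 of the Ccl7 exon. Identity was 65.3% over exon 2 and 62.0% over the coding sequences where both are present.

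The reads were 50 nt long, and at this length the 2 genes can be told apart. The longest run of bases that the mRNAs share is 23 nt. Of 764 windows of 50 nt in the Ccl2 mRNA and 752 in the Ccl7 mRNA, 0 occurred in a transcript of any other gene. Against the mRNAs of Ccl7, Ccl8, Ccl11 and Ccl12, the closest Ccl2 window still differed at 9 positions, and the closest Ccl7 window differed from the other 4 genes at 8. A predicted gene, Gm17268, spans Ccl2 on the opposite strand, but its 66 exon bases share 0 with those of Ccl2, and it was listed at 0 FPKM in all 6 libraries. In the 3′ untranslated part, the AU-rich pentamer ATTTA, on which mRNA decay proteins can act, occurred 1 time in the 275 nt of Ccl2 and 2 times in the 435 nt of Ccl7 (sense strand). It occurs in 42.6% of 2971 genes with a 3′ untranslated part of 250 to 500 nt. The heptamer TATTTAT, which overlaps the pentamer, was in neither gene.

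Both transcripts were abundant without flow and higher with it. Ccl2 had 438.3, 659.6 and 526.7 FPKM in non-flow controls 1 to 3 and 711.3, 2159 and 1662 FPKM in flow libraries 1 to 3. The flow values lay above all controls, but flow library 1 exceeded the highest control only 1.08-fold. Flow libraries 2 and 3 stood well above. The group levels were 541.5 ± 111 and 1511 ± 736 FPKM (SD, n = 3 each), a ratio of means of 2.79 and a difference of 1.35 on the log2(FPKM + 1) scale.

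Ccl7 had 220.1, 311.9 and 293.0 FPKM in non-flow controls 1 to 3 and 301.5, 878.2 and 716.0 FPKM in flow libraries 1 to 3. Its groups overlapped, since flow library 1 lay below non-flow control 2 at 0.967 times its level. Flow libraries 2 and 3 were again the high ones. The group levels were 275.0 ± 48.5 and 631.9 ± 297 FPKM (SD, n = 3 each), a ratio of means of 2.3 and a log2 difference of 1.08. Without flow library 1 the log2 difference was 1.82 for Ccl2 and 1.54 for Ccl7, and without flow library 2 it was 1.02 and 0.77. In bulk RNA, more transcript per cell and more cells that make it cannot be told apart.

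**Figure D1:**
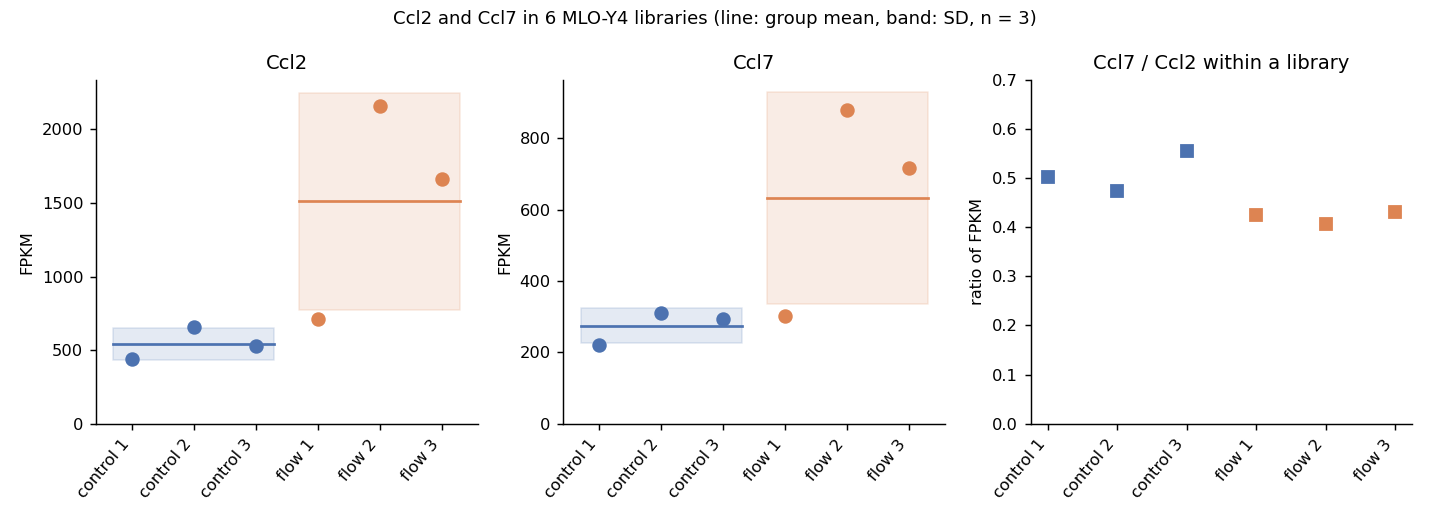
Level of Ccl2 (left) and Ccl7 (middle) in FPKM and the ratio of Ccl7 to Ccl2 (right) in each library, with non-flow controls in blue and flow in orange. Lines mark group means and bands the SD of 3 libraries. Flow libraries 2 and 3 hold the high values, flow library 1 lies close to the controls in both genes, and the ratio stays between 0.407 and 0.556.

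Of the 2 genes, Ccl2 had all 3 flow values above all controls, a pattern found in 7.12% of the 11957 tested genes, those whose mean reached 1 FPKM. A log2 difference of 1 or more, which both genes had, was found in 1.57% of them. The genes were picked from this contrast, so these shares are background only. At an adjusted p below 0.05 limma called 2 of the 11957, or 0.0167% (1 higher and 1 lower in flow, 0.00836% each), and neither was Ccl2 or Ccl7.

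The levels put both genes among the most abundant transcripts of these cells. Ccl2 ranked 228, 139 and 177 of all 39174 genes by FPKM in non-flow controls 1 to 3 and 134, 31 and 39 in flow libraries 1 to 3. Ccl7 ranked 491, 338 and 357 in the controls and 363, 106 and 118 in flow. From the estimated depth, these levels correspond to about 4800 to 19590 reads per library for Ccl2 and 2000 to 8270 for Ccl7. Counting error alone would be 2.2% at most, far below the spread between libraries.

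That spread was wide for genes of this level. The SD of log2 values was 0.29 in controls and 0.84 in flow for Ccl2, and 0.27 and 0.82 for Ccl7. Among the 188 genes within 1 log2 unit of the mean Ccl2 level, Ccl2 included, the median SD was 0.08 in controls and 0.18 in flow, and 7 had a larger flow SD than Ccl2. Among the 418 within 1 log2 unit of Ccl7 the medians were 0.09 and 0.17, and 12 had a larger flow SD. The highest flow value was 3.04 times the lowest for Ccl2 and 2.91 times for Ccl7. Depth did not follow these levels. Flow libraries 1 to 3 held an estimated 11020000, 5750000 and 19230000 reads, so the shallowest and the deepest flow library were the high ones. The part of depth in the spread was not tested.

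The 2 genes moved together from library to library. The ratio of Ccl7 to Ccl2 was 0.502, 0.473 and 0.556 in non-flow controls 1 to 3 and 0.424, 0.407 and 0.431 in flow libraries 1 to 3. Ccl7 thus stood near the same share of Ccl2 in all libraries, lower in the 3 flow libraries than in the 3 controls. The mean ratio was 0.510 ± 0.0423 in controls and 0.420 ± 0.0124 in flow (SD, n = 3 each). In the other deposited table, in which 2 flow columns carry names that match no sample title, the ratio was 0.449, 0.476 and 0.567 in the controls, 0.449 in flow library 1 and 0.402 and 0.445 in the other two flow columns. There the lowest control and the highest flow value were equal to 3 digits, so the separation of the groups in this ratio rests on the choice of table.

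The levels themselves were alike in both tables. In the other table Ccl2 had 498.7 ± 91.8 FPKM in control libraries and 1358 ± 658 in flow, and Ccl7 had 249.0 ± 57.7 and 577.5 ± 259 FPKM (SD, n = 3 each). In the libraries that both tables name, the values in the first were 1.03 to 1.21 times those in the other. The log2 differences in the other table were 1.31 for Ccl2 and 1.11 for Ccl7. The tables name the same cultures for 4 of 6 columns, so the second is not a separate experiment.

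High expression ended with these 2 genes at this locus. Ccl11 (eotaxin), whose start lies 22.3 kb from that of Ccl2, was listed at 0 in all 6 libraries, as were Ccl12 (MCP-5) at 66.3 kb and Ccl1. Ccl8 (MCP-2), at 79.6 kb, had 0.904, 0.895 and 0.170 FPKM in control libraries and 0.882, 1.13 and 0.505 FPKM in flow. For a transcript of its length 3 reads are worth 0.502 to 1.68 FPKM depending on the library, so its values are those of a few reads and no fold is given. For Ccl12 3 reads are worth 0.463 to 1.55 FPKM and for Ccl11 0.177 to 0.591 FPKM, so lower levels of these genes would not have been seen. On the other side of Ccl2, the long non-coding RNA Gm11419 reached at most 0.722 FPKM, in flow library 2. Gm31522, a further non-coding RNA on that side, is annotated in the window and was not analysed here. The protein-coding genes Asic2, with at most 0.0221 FPKM, and 5530401A14Rik, listed at 0, are the next ones within 250 kb.

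**Figure D2:**
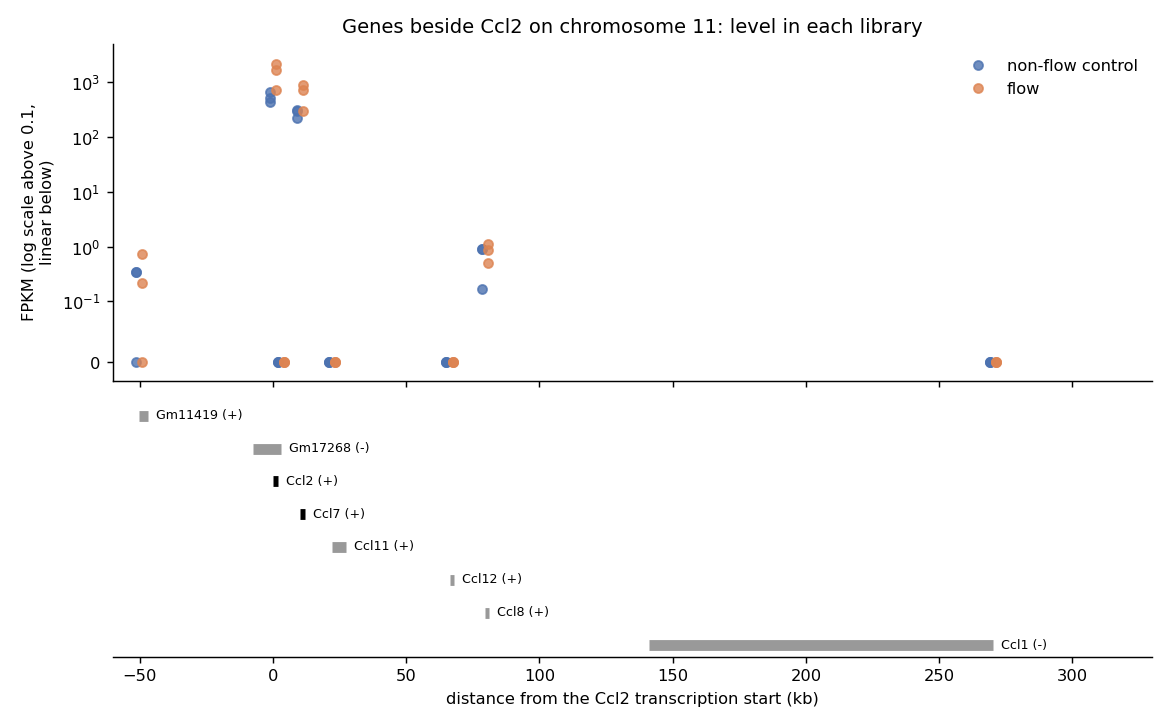
Level of genes beside Ccl2 on chromosome 11 in each library (top, FPKM, logarithmic above 0.1 and linear below) against distance from the Ccl2 start in kb, with gene bodies and strands below. Points sit at each gene's start, controls in blue and flow in orange. Ccl2 and Ccl7 lie between 220.1 and 2159 FPKM, and no other gene shown exceeds 1.13 FPKM.

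Among CC chemokines as a whole, Ccl2 and Ccl7 shared the top of the order with Ccl5, an attractant of T cells and monocytes. FPKM is per length, so levels can be compared between genes. In controls the order was Ccl5 at 559.4 ± 210 FPKM, Ccl2 at 541.5 ± 111, Ccl7 at 275.0 ± 48.5, Ccl9 at 32.7 ± 2.2, Ccl4 at 6.79 ± 3.26 and Ccl25 at 3.96 ± 0.689 (SD, n = 3). Ccl5 and Ccl2 overlapped, while all control values of Ccl7 lay below those of both. The other 14 CC ligands had a control mean under 1 FPKM. In flow the order of means was Ccl2 at 1511 ± 736 FPKM, Ccl7 at 631.9 ± 297, Ccl5 at 620.9 ± 235 and Ccl9 at 32.75 ± 4.74. Across flow libraries the values of Ccl2, Ccl7 and Ccl5 overlapped, but within each of these libraries Ccl2 was the highest. Ccl5 lay above Ccl7 in flow libraries 1 (504.0 against 301.5 FPKM) and 2 (891.6 against 878.2). It lay below Ccl7 in flow library 3 (467.2 against 716.0). Together Ccl2 and Ccl7 made up 57.5%, 53.4% and 63.1% of the summed FPKM of 20 CC ligands in non-flow controls 1 to 3 and 64.6%, 76.4% and 82.2% in flow libraries 1 to 3.

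Ccl5 followed another profile. It had 441.5, 801.4 and 435.3 FPKM in non-flow controls 1 to 3 and 504.0, 891.6 and 467.2 FPKM in flow libraries 1 to 3. The high libraries were non-flow control 2 and flow library 2, and the groups overlapped (log2 difference 0.15, SE 0.34, limma adjusted p = 0.866). Ccl4 (MIP-1 beta) had the same high libraries, with 10.4 FPKM in non-flow control 2 and 15.9 in flow library 2 against 4.02 to 8.32 in the others (adjusted p = 0.618). Ccl9, which attracts osteoclast precursors through CCR1, stayed between 27.45 and 36.6 FPKM in all 6 libraries (log2 difference 0.00, SE 0.13, adjusted p = 0.990).

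Of the other ligands that recruit or sustain monocytes, Csf1, the growth factor of macrophages and osteoclast precursors, had 895.7, 1062 and 840.4 FPKM in control libraries and 876.1, 1168 and 1519 in flow. Only flow library 3 stood well above the controls (log2 difference 0.32, SE 0.21, limma adjusted p = 0.599), and without it the log2 difference was 0.12. Il34, the second ligand of the CSF1 receptor, had 4.04, 3.93 and 3.47 FPKM in control libraries and 6.21, 6.06 and 4.90 in flow, with no overlap (log2 difference 0.48, SE 0.14, adjusted p = 0.559). In the other deposited table its log2 difference was -0.25. That table is shallower, with an estimated 690000 to 4720000 reads per library. There 3 reads on 1 kb of effective length are worth 4.37 FPKM in non-flow control 1. In the remaining libraries of that table they are worth 0.635 to 0.831 FPKM, below the levels of Il34 given above. The part of depth in the changed sign was not tested. Cx3cl1 (fractalkine) had 18.5 ± 0.839 and 22.4 ± 5.12 FPKM (SD, n = 3, adjusted p = 0.618). Of the 7 tested among 17 such ligands, 0 passed over all genes by limma, and 1 (Il34) had an unadjusted p under 0.05. At that threshold 3.70% of all genes tested were higher and 4.82% lower in flow. Il34 was also the 1 of the 7 with all flow values above the controls, a pattern found in 7.12% of all genes tested.

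The receptors for CCL2 and CCL7 were at or below the level of a few reads. Ccr2, the main receptor of both, was listed at 0 in 5 libraries and at 0.0547 FPKM in flow library 1, where 3 reads on its transcript are worth between 0.0282 and 0.0942 FPKM depending on the library. Ccr1 and Ccr3 were listed at 0 in all 6 libraries. Ackr1, an atypical receptor that holds chemokines on endothelium and red cells, was also listed at 0 in all 6. Ackr2, a scavenger that degrades inflammatory CC chemokines, reached at most 0.0428 FPKM, where 3 reads are worth at least 0.0554 FPKM. Ackr4 reached at most 0.109 FPKM, with 3 reads worth 0.0713 to 0.238 FPKM. Ccr4 reached at most 0.0216 FPKM. The chemerin-binding receptor Ccrl2 was the exception among these receptors, with 5.55, 12.3 and 11.4 FPKM in control libraries and 5.17, 9.09 and 8.81 in flow (log2 difference -0.27, SE 0.33, limma adjusted p = 0.736).

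The rest of the pathway was followed in lists of inducing cytokines, their receptors and kinases, transcription factors, brakes on the signal, regulators of mRNA stability, and proteins that present or cut chemokines. With the ligands and receptors above they hold 113 genes, of which 84 were tested. By limma 0 of the 84 passed over all genes, where 0.0167% of all genes did. The count was also 0 under each alternative and without any 1 library. At an unadjusted p under 0.05, 5 were higher and 4 lower in flow, against 3.70% and 4.82% of all genes tested. Without flow library 1 the counts were 14 and 2, where the shares over all genes were 1.79% and 2.85%. Without flow library 3 they were 5 and 13, beside 13.0% and 12.9% of all genes. The 3 flow values lay above all controls in 5 of the 84 genes (5.95%) and below them in 4 (4.76%), while the shares over all genes were 7.12% and 8.00%. The median log2 difference was -0.02, beside -0.01 for all genes tested.

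Among the 10 inducing ligands, 4 were tested, all 4 had a log2 difference above 0, with a median of 0.63, and 0 passed. Tnf had 8.92, 13.5 and 23.9 FPKM in non-flow controls 1 to 3 and 12.3, 20.9 and 44.6 in flow libraries 1 to 3. Its highest values were in the third library of each group, and the groups overlapped (log2 difference 0.63, SE 0.52, limma adjusted p = 0.634). Omission of flow library 3 gave a log2 difference of 0.16, and that of flow library 1 gave 1.05. Lif, an IL-6 family cytokine, had 4.09, 9.83 and 14.3 FPKM in control libraries and 6.11, 27.3 and 37.0 in flow. Flow libraries 2 and 3 were high, as for Ccl2 (log2 difference 1.06, SE 0.71, adjusted p = 0.601). Omission of flow library 3 gave 0.59 and omission of flow library 1 gave 1.8. Il6 had 1.61 ± 0.507 and 3.35 ± 2.04 FPKM (SD, n = 3, adjusted p = 0.593), with flow library 2 highest at 5.295 FPKM. Il1b, Il17a, Ifng and Osm were listed at 0 in all 6 libraries. Pdgfa, a growth factor chain, had 25.9 ± 5.21 and 26.4 ± 3.71 FPKM (adjusted p = 0.939).

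Of 23 receptors and signalling proteins upstream, all were tested, 9 had a log2 difference above 0 and 14 below, and 0 passed. Tlr2, the receptor for bacterial lipopeptides, had 48.4, 56.8 and 55.4 FPKM in control libraries and 65.8, 108.9 and 98.9 in flow. It was the 1 gene of these 23 whose groups did not overlap (log2 difference 0.73, SE 0.20, limma adjusted p = 0.559). Such a pattern was no rarity, with 7.12% of all genes tested having all flow values above the controls and 8.00% below. Irak1, a kinase below IL-1 and Toll-like receptors, had 53.5, 40.9 and 48.2 FPKM in control libraries and 30.1, 28.9 and 41.2 in flow, a log2 difference of -0.51 (SE 0.17, adjusted p = 0.559). Chuk, the IKK alpha kinase, had 21.0 ± 1.71 and 28.3 ± 6.10 FPKM, and Il6st, the shared IL-6 family receptor chain, had 98.3 ± 13.2 and 113 ± 2.64 FPKM (SD, n = 3).

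Transcription factors that act on such genes had a median log2 difference of -0.12 over 17 tested, with 6 above 0, 11 below and 0 passing. Rel, the c-Rel subunit of NF-kB, had 2.404, 1.87 and 2.65 FPKM in control libraries and 2.79, 4.47 and 3.16 in flow, with no overlap (log2 difference 0.42, SE 0.20, limma adjusted p = 0.559). Stat3, which acts below IL-6 family receptors, had 84.9, 72.5 and 88.7 FPKM in control libraries and 69.8, 55.7 and 69.6 in flow (log2 difference -0.33, SE 0.13, adjusted p = 0.559). Sp1, a general activator, had 26.9 ± 7.39 and 18.9 ± 0.668 FPKM, and the AP-1 gene Fosl2 had 20.2 ± 3.23 and 16.3 ± 0.938 FPKM (SD, n = 3). Rel was the 1 of the 17 with all flow values above the controls, and Stat3 and Sp1 were the 2 with all below. Over all genes tested these shares were 7.12% and 8.00%.

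The brakes on NF-kB signalling, 9 genes, had a median log2 difference of 0.15 with 0 passing. Nfkbia, the inhibitor I kappa B alpha, had 49.4, 46.7 and 52.2 FPKM in control libraries and 46.3, 63.6 and 111 in flow. Nfkbiz had 25.9, 21.4 and 35.2 FPKM in control libraries and 24.7, 44.4 and 114.2 in flow. In both, flow library 3 was the highest and flow library 1 lay within the controls or below them, so their order differs from that of Ccl2, in which flow library 2 was highest. Without flow library 3 the log2 difference went from 0.47 to 0.13 for Nfkbia and from 0.88 to 0.29 for Nfkbiz. Tnfaip3 (A20) had 3.99 ± 1.87 and 7.85 ± 4.67 FPKM, and the deubiquitinase Cyld had 8.13 ± 0.214 and 9.24 ± 1.77 FPKM (SD, n = 3).

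Regulators of mRNA stability bear on chemokine mRNAs, many of which turn over fast. Zc3h12a encodes Regnase-1, a ribonuclease that cuts inflammatory mRNAs, and is also known as MCPIP1 because CCL2 induces it in monocytes. It had 19.4, 16.2 and 11.6 FPKM in control libraries and 19.4, 38.7 and 58.9 in flow libraries 1 to 3. Flow library 1 exceeded non-flow control 1 only beyond the third digit, while flow libraries 2 and 3 were clear of all controls (log2 difference 1.15, SE 0.41, limma adjusted p = 0.559). Elavl1, the mRNA-stabilizing protein HuR, had 22.6, 21.9 and 23.3 FPKM in control libraries and 26.9, 27.8 and 25.5 in flow (log2 difference 0.23, SE 0.08, adjusted p = 0.559). These were the 2 of 9 without overlap. Over all genes tested, the 3 flow values lay above all controls in 7.12% and below them in 8.00%. Rc3h2 had 9.36 ± 0.934 and 12.5 ± 2.74 FPKM, and the decay factor Khsrp had 61.5 ± 1.90 and 53.1 ± 8.41 FPKM (SD, n = 3). With a GC correction the log2 difference went from 0.36 to 0.11 for Rc3h2 and from -0.22 to -0.03 for Khsrp.

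Proteins that hold or cut chemokines outside the cell had a median log2 difference of -0.18 over 14 tested, with 4 above 0, 10 below and 0 passing. Sdc2, a heparan sulfate carrier of the syndecan family, had 239.1, 223.9 and 222.4 FPKM in control libraries and 176.1, 188.7 and 195.3 in flow, all below the controls (log2 difference -0.29, SE 0.08, limma adjusted p = 0.559). Mmp2, a gelatinase known to trim CCL7 into a form that blocks its receptors, had 137, 122.9 and 135.5 FPKM in control libraries and 104.3, 97.1 and 122.9 in flow. Its highest flow value lay just under the lowest control (log2 difference -0.29, SE 0.11, adjusted p = 0.559). Sdc2 and Mmp2 were the 2 of 14 with all flow values below the controls, and 0 had all above. Over all genes tested these shares were 8.00% and 7.12%. Sdc4 had 179 ± 28.1 and 148 ± 22.9 FPKM. Tnfaip6 (TSG-6), which binds chemokines and hyaluronan, had 6.36, 6.33 and 9.99 FPKM in control libraries and 11.05, 9.32 and 12.7 in flow.

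**Figure D3:**
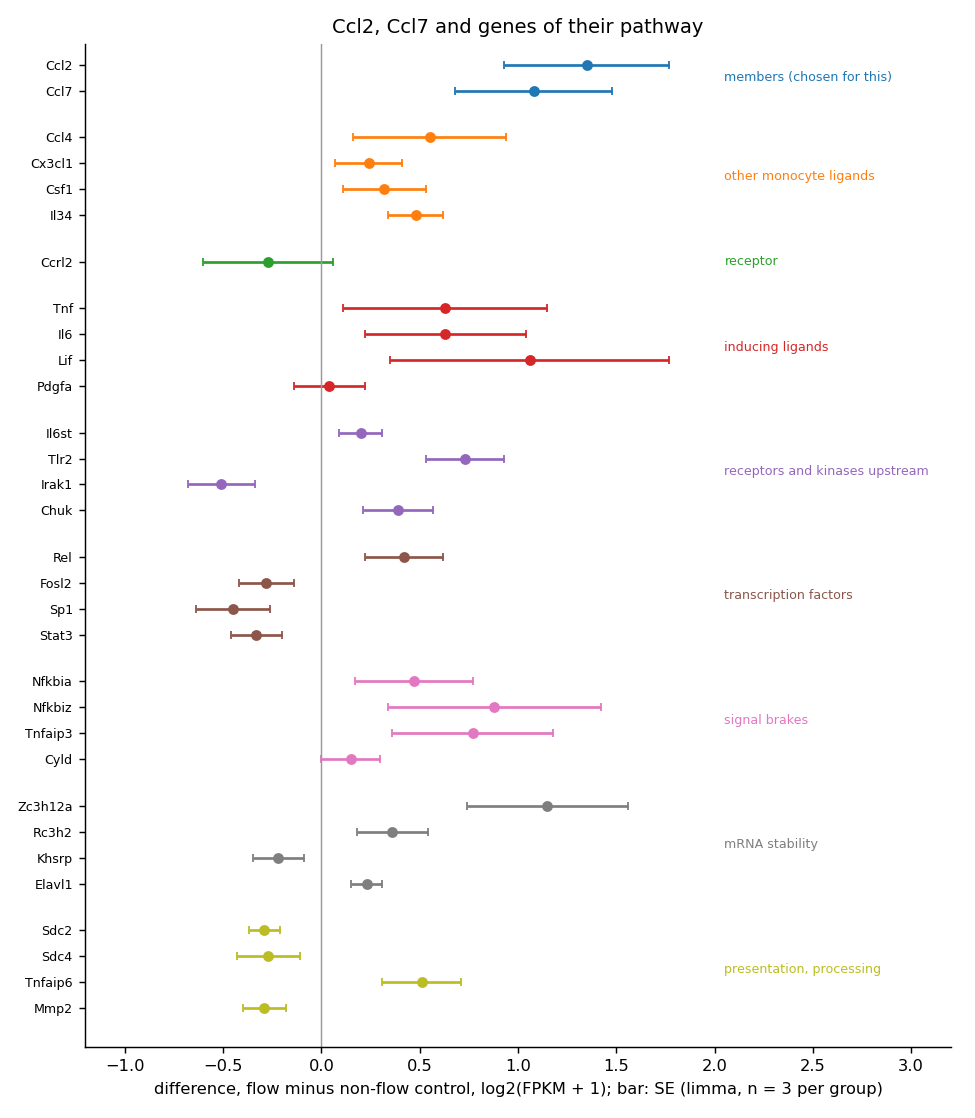
Difference between group means (flow minus control, log2(FPKM + 1)) with its SE from limma (n = 3 per group) for Ccl2, Ccl7 and the tested genes named from each pathway list. Ccl2 (1.35) and Ccl7 (1.08) were picked for this difference and are shown for scale. Zc3h12a (1.15) and Lif (1.06) lie at a similar distance, and none of the genes shown passed over all genes tested.

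The genes most like Ccl2 and Ccl7 over the 6 libraries were sought by Pearson's r of log2(FPKM + 1), as a description with no test, among 2070 other genes that spanned at least 1 log2 unit. All points share the 6 libraries and their depths. Ccl7 was the second most alike gene to Ccl2, and Ccl2 the most alike to Ccl7 (r = 0.991). With the group means removed, r was 0.990. Tlr2 was first for Ccl2 (r = 0.993) and second for Ccl7 (r = 0.984). It spans less, from 48.4 to 108.9 FPKM, but has the same order of flow libraries.

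Next for Ccl2 came Ripk2, the kinase below the NOD receptors (r = 0.976), and the neutrophil attractants Cxcl5 (r = 0.976) and Cxcl3 (r = 0.975). Ripk2 had 39.0, 38.9 and 41.5 FPKM in control libraries and 49.2, 95.4 and 83.7 in flow (log2 difference 0.87, SE 0.24, limma adjusted p = 0.559). Cxcl3 had 54.7, 108.8 and 55.4 FPKM in control libraries and 90.3, 447.2 and 216.5 in flow, with flow library 1 below non-flow control 2. Cxcl5 had 97.55 FPKM in flow library 1 against 26.9 to 51.8 in the controls, so its lowest flow value was clear of them. It did not pass over all genes (log2 difference 2.78, SE 0.65, limma adjusted p = 0.559). All flow values lay above the controls in Ripk2 and Cxcl5, as in 7.12% of all genes tested. The short RNAs Snord4a (r = 0.964 with Ccl2), Mir3060 and Gm22751 (r = 0.974 and 0.971 with Ccl7) also ranked among the first 6. They were listed at 0 in 4 of 6 libraries, so their likeness rests on flow libraries 2 and 3 alone. By the same measure r with Ccl2 was 0.503 for Ccl5, 0.656 for Tnf, 0.809 for Csf1, 0.850 for Lif, 0.865 for Zc3h12a and 0.919 for Il6.

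**Figure D4:**
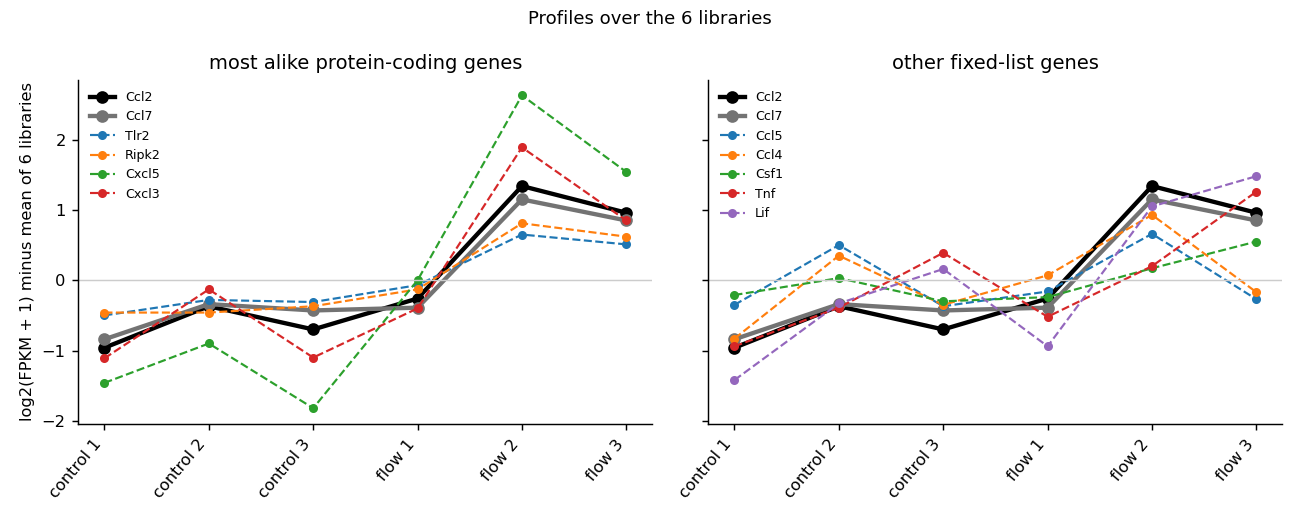
Profiles of log2(FPKM + 1) minus the mean of the 6 libraries, with Ccl2 in black and Ccl7 in grey. Left, the protein-coding genes most like Ccl2; right, other genes of the lists. Replicates have no order and lines only join the points of a gene. Ccl2 and Ccl7 reach 1.34 and 1.15 in flow library 2 and 0.96 and 0.85 in flow library 3, while Ccl5 is high in non-flow control 2 (0.50) and flow library 2 (0.66).

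Markers were checked for other cells that could supply or answer these chemokines. Of 9 monocyte and macrophage markers, Itgam was listed at 0 in all 6 libraries, Ptprc, Adgre1, Csf1r and Fcgr1 stayed under 0.1 FPKM, and the list summed to 9.29 to 11.7 FPKM in control libraries and 8.84 to 11.6 in flow, mostly Cd14 and Cd68. Lyz2 had 0.262 to 0.927 FPKM, and Tyrobp was above 0 only in flow library 2, at 0.480 FPKM. Of 7 endothelial markers, Kdr and Tie1 were listed at 0 and Pecam1 was at most 0.152 FPKM. That list summed to 92.7 to 119 FPKM in control libraries and 81.0 to 91.7 in flow, nearly all of it Eng. The macrophage sums overlapped between the groups, and the endothelial sums were lower in the 3 flow libraries than in the 3 controls. Eng by itself overlapped, with 91.0 FPKM in flow library 2 and 90.14 in non-flow control 3. The part of such cells in the levels of Ccl2 and Ccl7 was not tested. Of 8 osteocyte markers, Pdpn (396 ± 34.1 FPKM in controls, SD, n = 3) and Gja1 and Cd44 were high and Phex had 4.06 to 7.46 FPKM. Sost, Mepe and Fgf23 were listed at 0 in all 6 libraries, and Dmp1 was at 0 in 4 and at most 0.0354 FPKM. Of 8 osteoblast markers 6 were tested, 5 had a log2 difference below 0 and 0 passed by limma. Among them Col1a2 ranged between 109 and 123 FPKM in control libraries and between 92.0 and 97.4 in flow, with no overlap (adjusted p = 0.559). It was the 1 tested osteoblast marker without overlap, and 8.00% of all genes tested had all flow values below the controls. Runx2, Alpl, Col1a1 and Bglap overlapped, with log2 differences of -0.29, -0.77, -0.23 and -0.26. Spp1, the most abundant of these markers, went the other way and overlapped (log2 difference 0.11, limma adjusted p = 0.705). It ran from 6868 to 7054 FPKM without flow and from 6445 to 8360 with it. Estimated depth was 17910000 to 19010000 reads in controls and 5750000 to 19230000 in flow.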

How the data were processed

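RNA of 6 cultures (3 per group) was read with 50 cycles of single-end sequencing, per the labels' protocols. Build mm10 and the tools CASAVA 1.8.2, TopHat2 2.0.9 and Cufflinks 2.2.1 are listed in the submitters' processing notes. For annotation and strand use, nothing was given in the sources used here. The authors deposited 2 tables of FPKM, and no counts, so no count model was used. The table whose 6 columns name sample titles was analysed. In the other, 2 columns could be assigned to the flow group but to no culture, and of 22 repeated rows the higher was kept.

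Genes whose mean reached 1 FPKM were tested on log2(FPKM + 1), which understates changes of low genes, with limma 3.58.1 in R 4.3.3 (trend, two-sided, no covariate, Benjamini-Hochberg over 11957 genes, threshold 0.05). The procedure was tested on simulated data. P-values reflect only the spread among cultures collected on separate days. With 3 against 3 the smallest two-sided exact permutation p is 0.1, and no such test was made.

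The steps between low FPKM values gave an estimate of depth, with 200 nt taken off each transcript length, and 3 reads served as floor. Read numbers rest on that assumption. An exact 0 can be a failed estimate. Floors and counting errors cover counting error only. Gene models came from GENCODE M21, which matched 37604 of the 39174 identifiers, and promoter and protein sequences of Ccl2 and Ccl7 were not used here.

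Ccl2, Ccl7 and the gene lists were chosen with earlier results of these data known. The text names both genes, the chromosome 11 neighbours within 250 kb and the receptors (a member of that list is not reported here), up to 4 tested genes per other pathway list with the smallest p, and the 6 genes with the highest r for each. Ccl5, Ccl9, Ccl25, marker genes and genes listed at 0 are named beyond that rule, chosen after their values were seen. Alternatives were another pseudocount, quantile normalization, no filter, a replicate block, the other table, a GC correction and leaving out each library.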

Additional observations from a re-analysis of the deposited data

How the results depend on the processing

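The differences of Ccl2 and Ccl7 stayed above 0 under all alternatives run. For Ccl2 the log2 difference was 1.2 to 1.36 over the alternatives that keep all libraries and 1.02 to 1.82 when 1 library was left out. For Ccl7 it was 0.91 to 1.11 and 0.77 to 1.54. The lowest values with all libraries came from a GC correction of protein-coding genes, chosen after seeing the data. The ratio of Ccl7 to Ccl2 over all libraries was 0.465 in both tables and 0.447 to 0.477 with 1 library left out. The number of genes limma called over all genes was 2. It was 4 with a pseudocount of 0.1, 4 with no filter, 0 with the GC correction and 9 to 24 with 1 library left out (24 without flow library 3). The labels do not say which flow and control cultures share a day. With adjacent title numbers (3 and 4, 11 and 12, 19 and 20) as a replicate block, 1 gene was called. The deviations of adjacent titles from their group means correlated at Pearson's r of 0.04, 0.02 and 0.06 and at Spearman's rho of 0.24, 0.30 and 0.28. For other pairs r was -0.07 to 0.03 and rho was -0.22 to -0.08. By rho the adjacent titles stood apart from all other pairs, while r was near 0 for every pair. The labels name no pairs, so the pairing is not settled and the unblocked fit is the one reported. Between adjacent titles the log2 difference was 0.70, 1.71 and 1.66 for Ccl2 and 0.45, 1.49 and 1.29 for Ccl7. With the block the SE was 0.24 and not 0.42 for Ccl2, 0.23 and not 0.40 for Ccl7, 0.12 and not 0.52 for Tnf and 0.22 and not 0.71 for Lif. Of the pathway genes, 10 were higher and 9 lower at an unadjusted p under 0.05 with the block (5.14% and 6.60% of all genes), and 8 and 5 with the GC correction (3.12% and 3.60%). In the other deposited table the log2 difference was -0.12 for Il6st, -0.15 for Pdgfa and -0.25 for Il34, against 0.20, 0.04 and 0.48. For Pdgfa it was also -0.13 without non-flow control 3 and -0.07 without flow library 3, and up to 0.13 with another library left out. The cause was not tested. Snord4a was called without flow library 1 (log2 difference 7.62). In 411 other results on named genes the direction and the side of the threshold did not change, but the value moved by over 1.5 times in 21 of 35 genes when some library was left out, in 12 of 35 in the other table and in 12 of 32 with the GC correction. At these depths Ccl8, Ccl11, Ccl12 and the receptors other than Ccrl2 cannot be compared.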
